A study of Arabidopsis thaliana with 18 samples.

Results

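Xyloglucan endotransglucosylase/hydrolase (XTH) genes encode the cell wall enzymes that cut and rejoin, or hydrolyse, xyloglucan. The members described here are the probe sets annotated to 1 gene whose reference symbol is XTH followed by a number. The rule uses no expression values, although the family was chosen with earlier results of these data known. This rule found 9 of 22746 probe sets, namely XTH16, XTH18, XTH19, XTH20, XTH21, XTH26, XTH29, XTH32 and XTH33, with 1 probe set each, although the reference gene table lists 30 genes with such a symbol. The others were not analysed here, since the array annotation used does not pair them with a probe set.

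Xyloglucan is a hemicellulose that lies along cellulose microfibrils in the primary wall of dicotyledons. Its glucan backbone is made in the Golgi by synthases of the CSLC family, and after secretion it is remodelled in the wall by XTH proteins, of which some join chains end to end (transglucosylation) and some cleave them (hydrolysis). A root hair grows at its tip, where new wall is laid down and then stiffens along the shaft, and XTH26 is known as a gene of root hairs.

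RNA was measured on 18 Affymetrix ATH1 arrays from sorted root hair cells of Arabidopsis seedlings 5 days old, with 3 biological replicates for each of 6 genotypes, all in the Columbia-0 background. Wild type (WT), the single mutants gtl1 (gtl1-1) and df1 (df1-1, a T-DNA insertion) and the double mutant gtl1df1 carried pEXPA7:NLS-GFP, a nuclear green fluorescent protein under the promoter of the root hair expansin gene EXPA7. GTL1ox (pEXPA7:GTL1-GFP) and DF1ox (pEXPA7:DF1-GFP) expressed the trihelix transcription factor GTL1 or DF1, which restrain root hair growth, as a fusion that was itself the signal sorted, so both overexpression lines lacked the marker the other genotypes carried, and their cells were chosen by the transgene. The question behind the comparisons is how gain or loss of either factor changes RNA levels in these cells. The labels say that some arrays were labelled with a 2-cycle protocol but do not tie it to genotypes, and its part in the results was not tested.

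Values are gcRMA values on the log2 scale, where a difference of 1 is 2-fold and the lowest value, 2.22, held 27.9% of all values to within 0.01. DF1 was at 14.09 to 14.30 in DF1ox, 7.23 to 7.57 in WT, 3.30 to 3.74 in df1 and 3.41 to 5.03 in gtl1df1, which matches the labels, and GTL1 was not analysed here. DF1 was also low in GTL1ox, at 4.83 to 5.53, and it was at 8.38 to 8.83 in gtl1. EXPA7 was at 12.78 to 13.34 and EXPA18, another root hair expansin, at 12.77 to 14.34 over all arrays, while of 26 markers listed for other cell types 0 were analysed here, so that other cells in the sort could not be measured. The bacterial control BioB, added before hybridisation, was at 2.50 to 2.99 on the 9 arrays of WT, GTL1ox and DF1ox and at 7.06 to 8.13 on the 9 mutant arrays. These 9 and 9 arrays are called the low-BioB and the high-BioB arrays here, a division seen in the control values that no label names as a batch. No genotype spanned both, so this division and genotype cannot be told apart wherever a mutant is compared with WT, GTL1ox or DF1ox. Among the low-BioB arrays the control BioC was at 7.32 to 7.64 in DF1ox, above the 6.31 to 6.74 of WT and GTL1ox. The added controls BioDn and CreX had means of 10.33 and 13.12 in DF1ox, 9.33 and 12.20 in WT, and 9.21 and 12.30 in GTL1ox. Among the high-BioB arrays BioB was at 7.86 to 8.13 in df1 and 7.06 to 7.32 in gtl1df1. There BioC was at 9.23 to 9.43 in df1 and 8.31 to 8.67 in gtl1df1, and BioDn and CreX did not overlap either. The part of these control differences in the results was not tested. WT arrays correlated with each other at 0.987 to 0.994 over all probe sets, below the 0.996 to 0.998 found within each other genotype. Probe sets at the end of control transcripts (actin, GAPDH and ubiquitin) were compared with those at their start. The mean log2 difference ran from 3.04 ± 0.08 (SD) in GTL1ox to 3.42 ± 0.07 in gtl1df1, and it was 3.26 ± 0.29 in WT. Its part in the results was not tested.

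Of the 9 genes, 5 varied between genotypes and 4 lay near the lowest value on every array. XTH16 and XTH29 were listed at 2.22 on all 18 arrays, XTH32 at 2.22 to 2.23 and XTH20 at 2.27 to 2.39. XTH32 belongs to the small group of the family that includes known hydrolases, and XTH20 is close in sequence to XTH18 and XTH19. These 4 genes gave no measurable level in any genotype, and none of them was called in any of the 11 comparisons. A value this low on the array does not show that the gene is silent. The rest of the description concerns XTH26, XTH33, XTH18, XTH19 and XTH21.

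XTH26, the root hair member, was lowest in GTL1ox. It was at 9.69, 9.42 and 9.31 in GTL1ox (replicates 1 to 3) against 12.07, 11.43 and 11.68 in WT and 11.87, 11.74 and 11.98 in DF1ox. No array of GTL1ox overlapped those of any other genotype, whereas DF1ox and WT overlapped. In the mutants XTH26 was at 11.48, 11.41 and 11.42 in gtl1, 10.33, 10.64 and 11.07 in df1, and 11.09, 10.78 and 10.82 in gtl1df1.

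In order, the means of XTH26 were 9.47 ± 0.19 (SD, n = 3) in GTL1ox, 10.68 ± 0.38 in df1, 10.89 ± 0.17 in gtl1df1, 11.44 ± 0.04 in gtl1, 11.72 ± 0.32 in WT and 11.86 ± 0.12 in DF1ox. The step from GTL1ox to df1 had no overlap of arrays, and neither had the step from gtl1df1 to gtl1, although the latter did not pass the test (0.54 lower in gtl1df1, limma adjusted p = 0.13). All other neighbours in this order overlapped. Against WT, XTH26 fell by 2.25 ± 0.19 (SE) in GTL1ox, which is 4.76-fold (adjusted p = 1.47e-06), and it differed by 0.14 in DF1ox (95% interval -0.26 to 0.54, adjusted p = 0.848).

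The direct test between the overexpression lines gave a difference of -2.39 ± 0.19 (SE) in XTH26 for GTL1ox minus DF1ox (5.24-fold, adjusted p = 1.42e-06). These differences in XTH26 lay among the low-BioB arrays and held under every alternative tried. The added controls BioC, BioDn and CreX were also higher in DF1ox than in GTL1ox, and their part in the XTH26 results was not tested. Of the 2 root hair marker genes analysed here, EXPA18 was also lower in GTL1ox, at 12.77 to 12.92 against 14.21 to 14.34 in WT (a fall of 1.45 ± 0.05, adjusted p = 1.11e-09), and EXPA7, whose promoter drives the sorted marker, was at 13.20 to 13.34 against 13.10 to 13.14 (difference 0.15 ± 0.06, adjusted p = 0.129). EXPA18 was also called lower than WT in DF1ox (by 0.27, adjusted p = 0.00634), df1 (by 0.22, adjusted p = 0.0116) and gtl1df1 (by 0.33, adjusted p = 0.00093). EXPA7 was called lower in gtl1df1 (by 0.23, adjusted p = 0.029, and 0.0196 to 0.132 with single arrays left out). The part of EXPA7 and EXPA18 in the XTH26 results was not tested. XTH26 was also lower than WT in df1, where it fell by 1.05 ± 0.19 (adjusted p = 0.00228), and in gtl1df1, where it fell by 0.83 ± 0.19 (adjusted p = 0.00886). Thus in this family member the df1 mutation and the GTL1ox line both went with a value below WT. DF1 RNA was itself 2.10 ± 0.32 (SE) below WT in GTL1ox (adjusted p = 0.000281), so gain of GTL1 and less DF1 RNA cannot be told apart in this line. The part of DF1 in the XTH26 result was not tested. In gtl1 the difference of XTH26 from WT was -0.29 (95% interval -0.69 to 0.12, adjusted p = 0.392). The falls in df1 and gtl1df1 compare low-BioB with high-BioB arrays, and when only the compared arrays entered the fit their adjusted p was 0.144 and 0.119. As the cells were pooled by sorting, less RNA per cell and fewer cells that express XTH26 cannot be told apart.

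**Figure D1:**
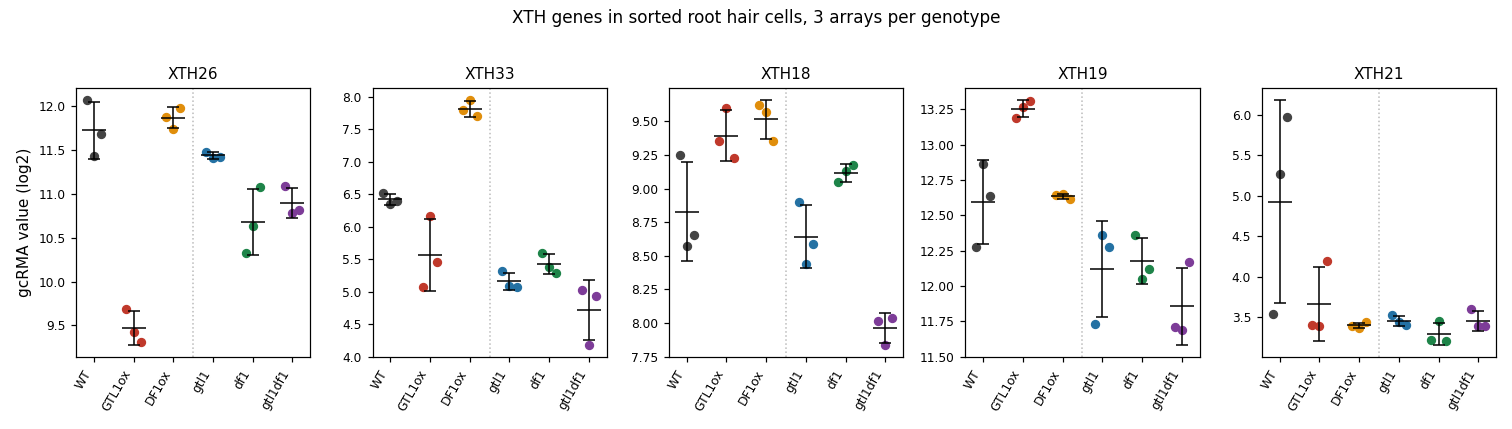
Level of 5 XTH genes (vertical axis, gcRMA value on the log2 scale, a separate scale for each gene) in 6 genotypes. Points are single arrays, horizontal lines are means with SD (n = 3), and the dotted line parts the low-BioB (left) from the high-BioB arrays. XTH26 is lowest in GTL1ox at 9.31 to 9.69, XTH33 is highest in DF1ox at 7.70 to 7.94, and XTH18 is lowest in gtl1df1 at 7.84 to 8.04.

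XTH33, a member known as a protein of the plasma membrane, went in opposite directions in the overexpression lines. It was at 7.79, 7.94 and 7.70 in DF1ox (replicates 1 to 3), 6.52, 6.35 and 6.39 in WT, and 5.07, 6.16 and 5.46 in GTL1ox. The arrays of these 3 genotypes did not overlap. In the mutants XTH33 was at 5.31, 5.09 and 5.08 in gtl1, 5.59, 5.39 and 5.28 in df1, and 5.02, 4.18 and 4.94 in gtl1df1, so that every mutant array lay below every WT array.

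Against WT, XTH33 rose by 1.39 ± 0.25 (SE) in DF1ox, which is 2.62-fold (adjusted p = 0.00458), and fell by 0.86 ± 0.25 in GTL1ox (adjusted p = 0.0219). Tested directly, XTH33 was 2.25 ± 0.25 lower in GTL1ox than in DF1ox (4.76-fold, adjusted p = 2.95e-05). The rise of XTH33 in DF1ox and the difference between the lines held under every alternative tried. The added controls BioC, BioDn and CreX were also higher in DF1ox, and their part in these 2 results was not tested. The fall of XTH33 in GTL1ox was less firm. Its adjusted p was 0.187 when only the compared arrays entered the fit, and between 0.0521 and 0.103 without GTL1ox replicate 1 or 3 or without WT replicate 1 or 3.

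XTH33 fell in all 3 mutants against WT, by 1.26 ± 0.25 (SE) in gtl1 (adjusted p = 0.00605), by 1.00 ± 0.25 in df1 (adjusted p = 0.0143) and by 1.71 ± 0.25 in gtl1df1 (3.26-fold, adjusted p = 0.000523). The call in df1 was lost without df1 replicate 3 (adjusted p = 0.0501). Among the mutant arrays gtl1df1 lay below gtl1 by 0.44 (95% interval of the difference -0.98 to 0.10, adjusted p = 0.44) and below df1 by 0.70 (interval -1.24 to -0.16, adjusted p = 0.074), in neither case with overlap of arrays. The largest difference of any XTH gene in the 10 comparisons between genotypes was that of XTH33 between DF1ox and gtl1df1, at 3.10 ± 0.25 or 8.56-fold (adjusted p = 1.82e-06), and here DF1ox was above WT and gtl1df1 below it.

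XTH18 and XTH19 are close relatives known from roots, and XTH19 is also known for its induction by auxin and in healing stems. Their loci, AT4G30280 and AT4G30290, are next to each other among the protein-coding genes of the reference table, and the locus before XTH18 is that of XTH24. XTH18 was at 9.25, 8.58 and 8.66 in WT (replicates 1 to 3), 9.35, 9.60 and 9.23 in GTL1ox, and 9.62, 9.57 and 9.35 in DF1ox. In the mutants XTH18 was at 8.90, 8.44 and 8.59 in gtl1, 9.05, 9.13 and 9.17 in df1, and 8.02, 7.84 and 8.04 in gtl1df1. The double mutant thus lay below all other arrays, while WT replicate 1 reached into the range of GTL1ox and lay above every df1 array. How far the XTH18 and XTH19 probes read RNA of their near copies was not tested.

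XTH18 fell in gtl1df1 by 0.68 ± 0.17 (SE) against gtl1 (adjusted p = 0.0378) and by 1.15 ± 0.17 against df1 (2.22-fold, adjusted p = 0.000414), both among the mutant arrays. The added controls also differed between df1 and gtl1df1, and their part in the second difference was not tested. XTH18 fell against WT as well, by 0.86 ± 0.17 (adjusted p = 0.00355). The single mutants did not pass the test for XTH18, at -0.19 in gtl1 (95% interval -0.55 to 0.18, adjusted p = 0.601) and 0.29 in df1 (interval -0.07 to 0.65, adjusted p = 0.294). The interaction, which asks whether losing both factors differs from the sum of the single losses, was -0.97 ± 0.24 for XTH18 (adjusted p = 0.0145). It was the only one of the 9 genes called in the interaction.

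When only the compared arrays entered the fit, the XTH18 call was lost in gtl1df1 against gtl1 (adjusted p = 0.13) and against WT (adjusted p = 0.123), and against gtl1 the adjusted p was between 0.065 and 0.150 without any 1 of gtl1df1 replicates 1, 2 and 3 or gtl1 replicates 1 and 3. The fall of XTH18 against df1 and the interaction kept their calls in every alternative fit, although the interaction is smaller than 2-fold. XTH18 rose by 0.57 ± 0.17 in GTL1ox (adjusted p = 0.0246) and by 0.69 ± 0.17 in DF1ox (adjusted p = 0.0246) against WT, and the lines differed by -0.12 (95% interval -0.49 to 0.24). The rise in GTL1ox had an adjusted p of 0.0534 to 0.101 without GTL1ox replicate 1 or 2 or WT replicate 2 or 3. The rise in DF1ox had an adjusted p of 0.0772 to 0.0973 without DF1ox replicate 1 or 2 or WT replicate 2 or 3, and both were lost when only the compared arrays were fitted (adjusted p = 0.241 and 0.305).

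XTH19 was highest in GTL1ox. It was at 13.19, 13.27 and 13.31 in GTL1ox (replicates 1 to 3), 12.28, 12.87 and 12.63 in WT, and 12.64, 12.65 and 12.61 in DF1ox. The GTL1ox arrays lay above all others, and those of DF1ox lay within the range of WT. In the mutants XTH19 was at 11.73, 12.36 and 12.27 in gtl1, 12.36, 12.05 and 12.12 in df1, and 11.71, 11.69 and 12.17 in gtl1df1, and these 3 genotypes overlapped one another.

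XTH19 rose by 0.66 ± 0.18 (SE) in GTL1ox against WT (1.58-fold, adjusted p = 0.0156) and was 0.62 ± 0.18 higher in GTL1ox than in DF1ox (adjusted p = 0.0266). In DF1ox it differed from WT by 0.04 (95% interval -0.35 to 0.43, adjusted p = 1). These differences of XTH19 were sensitive to the arrays fitted. The first had an adjusted p of 0.0825 when only the compared arrays were fitted, and of 0.0503 and 0.0696 without GTL1ox replicate 3 and WT replicate 1, while the second had 0.054 to 0.0795 when any 1 of the 6 arrays compared was left out and 0.0026 with those 6 alone fitted. Against WT XTH19 fell by 0.74 ± 0.18 in gtl1df1 (adjusted p = 0.0147), a call lost without gtl1df1 replicate 1 or 2 or WT replicate 2 (adjusted p = 0.0589 to 0.0664) and with only the compared arrays fitted (adjusted p = 0.184). The differences in gtl1 and df1 were -0.47 (adjusted p = 0.123) and -0.41 (adjusted p = 0.152).

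XTH21, a gene known to promote root growth, was low on all but 3 arrays. It was at 3.54, 5.27 and 5.97 in WT (replicates 1 to 3), 3.40, 3.39 and 4.19 in GTL1ox, and 3.39, 3.37 and 3.43 in DF1ox. In the mutants it was between 3.21 and 3.60. Only WT replicates 2 and 3 and GTL1ox replicate 3 were above 3.60, so the level of XTH21 in WT rests on 2 arrays that differ from the third.

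XTH21 fell against WT by 1.47 ± 0.44 (SE) in gtl1 (adjusted p = 0.0475), by 1.63 ± 0.44 in df1 (adjusted p = 0.0216) and by 1.47 ± 0.44 in gtl1df1 (adjusted p = 0.0405). The differences of XTH21 in GTL1ox and DF1ox were of like size, at -1.26 (adjusted p = 0.054) and -1.53 (adjusted p = 0.0521), and without WT replicate 1 they passed the test at -1.96 (adjusted p = 6.72e-05) and -2.22 (adjusted p = 0.000164). None of the 3 calls held with only the compared arrays fitted, where the adjusted p was 0.319 to 0.449. Without WT replicate 2 it was 0.0744 to 0.129 and without WT replicate 3 it was 0.0838 to 0.173, at differences of -1.46 to -0.95, and without WT replicate 1 the differences were -2.33 to -2.17. Leaving out any 1 mutant array also ended the call it entered, with an adjusted p of 0.105 to 0.114 without a gtl1 array, 0.0513 to 0.0609 without a df1 array and 0.0795 to 0.111 without a gtl1df1 array.

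Read as a family, the XTH genes did not move together in the overexpression lines in the main fit. In GTL1ox against WT 2 of the 9 rose (XTH18 and XTH19) and 2 fell (XTH26 and XTH33), while the share called over all probe sets was 24.5% (14.9% higher, 9.65% lower). In DF1ox against WT 2 rose (XTH18 and XTH33) and 0 fell, beside 8.04% of all probe sets (3.86% higher, 4.18% lower). With only the compared arrays fitted, the call against WT that remained was XTH26 (lower) in GTL1ox and XTH33 (higher) in DF1ox. With single arrays left out, the counts were 2 to 3 in GTL1ox and 1 to 3 in DF1ox. Between GTL1ox and DF1ox 1 was higher in GTL1ox (XTH19) and 2 were lower (XTH26 and XTH33), beside 20.5% (13.1% higher, 7.42% lower). The median difference of the 9 genes was -0.00053 in GTL1ox and 0.0027 in DF1ox, and that of all probe sets was 0 in every comparison, so the median says little where 4 of the 9 lie near the lowest value.

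Against WT the mutants had calls in 1 direction only. The 3 comparisons share the same WT arrays, so their directions are not independent of each other. In gtl1df1 5 of the 9 XTH genes fell and 0 rose, with a median difference of -0.74, where 14.7% of all probe sets were called (6.77% higher, 7.92% lower). In df1 3 fell (XTH26, XTH33 and XTH21), beside 17.6% of all probe sets (7.54% higher, 10% lower), and in gtl1 2 fell (XTH33 and XTH21), beside 11.8% (5.24% higher, 6.54% lower). The count for gtl1df1 was 3 without gtl1df1 replicate 1 or 2 or without WT replicate 2, and 1 (XTH33) with only the compared arrays fitted. That for gtl1 was 1 without WT replicate 2 or 3 or any gtl1 array, and that for df1 was 1 without df1 replicate 3 and 5 without WT replicate 1, where XTH18 was called higher and XTH19 lower. As all of these compare low-BioB with high-BioB arrays, that division and genotype cannot be told apart.

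Among the mutant arrays gtl1df1 differed from gtl1 and from df1 in XTH18 alone among the 9, lower in both cases, where 4.71% (2.26% higher, 2.44% lower) and 17.4% (9.22% higher, 8.23% lower) of all probe sets were called. In the study's own contrast of gain against loss, GTL1ox against gtl1df1, 3 were higher (XTH18 by 1.43 ± 0.17, XTH19 by 1.40 ± 0.18 and XTH33 by 0.85 ± 0.25, SE) and 1 was lower (XTH26), beside 29.3% of all probe sets (17.7% higher, 11.6% lower). The XTH33 call there had an adjusted p of 0.0196, which was 0.249 with only the compared arrays fitted and 0.0829 and 0.0927 without GTL1ox replicate 2 and gtl1df1 replicate 2. In DF1ox against gtl1df1 4 were higher and 0 lower, beside 20.8% (10.3% higher, 10.5% lower). These were XTH18 by 1.55 ± 0.17, XTH19 by 0.78 ± 0.18, XTH26 by 0.97 ± 0.19 and XTH33 by 3.10 ± 0.25. These 2 contrasts share the gtl1df1 arrays, whose XTH18, XTH19, XTH26 and XTH33 values were all below WT. In the interaction 1 of the 9 was called, XTH18, beside 15.6% (8.88% higher, 6.74% lower).

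With a 2-fold minimum added to the call, the XTH genes that remained in the overexpression lines were XTH26 in GTL1ox against WT (beside 9.48% of all probe sets), XTH33 in DF1ox against WT (2.58%), and both between the lines (6.47%). Against WT 2 remained in gtl1, XTH33 and XTH21 (3.01%), 3 in df1, XTH26, XTH33 and XTH21 (5.56%), and 2 in gtl1df1, XTH33 and XTH21 (4.33%). Of XTH18 the difference between gtl1df1 and df1 remained (5.66%), those between gtl1df1 and gtl1 (1.2%) and in the interaction (7.96%) being under 2-fold. In the contrasts of gain against loss XTH18, XTH19 and XTH26 remained for GTL1ox (12.1%) and XTH18 and XTH33 for DF1ox (6.76%).

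**Figure D2:**
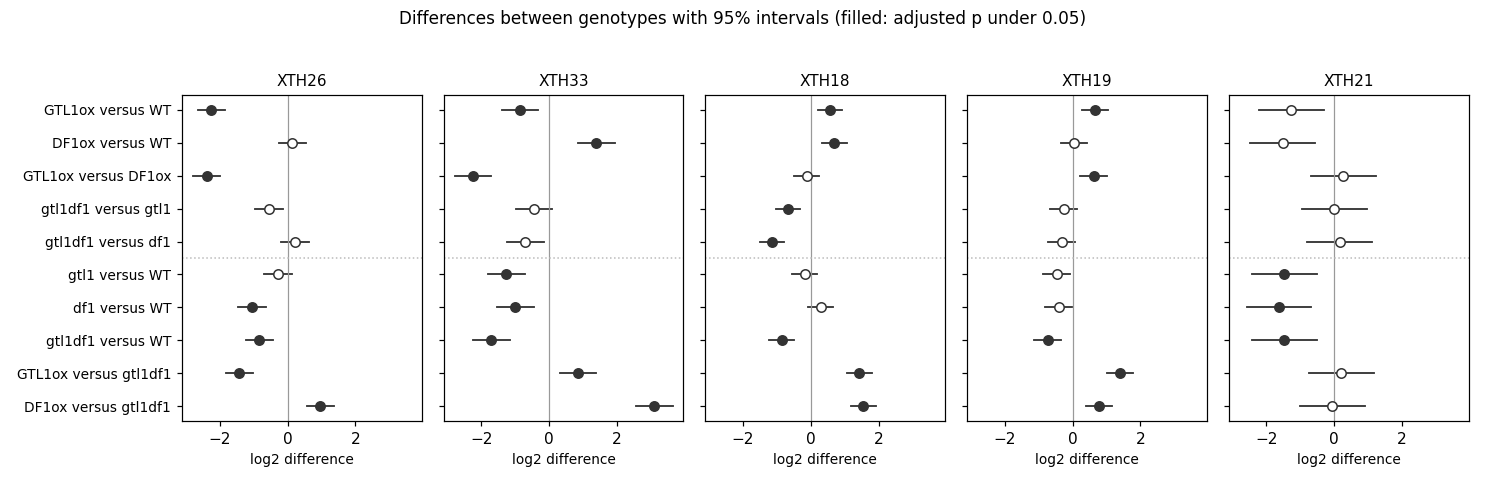
Differences between genotypes (horizontal axis, log2, first genotype minus second) for 5 XTH genes in 10 comparisons. Points are limma estimates with 95% intervals, filled where the adjusted p is under 0.05. Comparisons above the dotted line lie within the low-BioB or within the high-BioB arrays. XTH26 is at -2.25 and -2.39 in GTL1ox against WT and DF1ox, and XTH33 is 3.10 higher in DF1ox than in gtl1df1.

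Of 24 further names of the XTH family and 19 names of xyloglucan synthesis and turnover, the array annotation used paired 1 and 5 with a probe set. The others were not analysed here. XTH27, a family member listed under another symbol (EXGT-A3) and known from leaf vein development, was at 5.61, 5.21 and 6.29 in GTL1ox and 4.35, 4.47 and 4.65 in WT, a rise of 1.22 ± 0.20 (SE, 2.32-fold, adjusted p = 0.000564). Its call was lost with only the compared arrays fitted (adjusted p = 0.087). XTH27 was at 4.12, 3.99 and 4.26 in DF1ox, 1.58 ± 0.20 below GTL1ox (adjusted p = 0.000103), and at 3.61, 3.18 and 3.41 in gtl1df1, where it fell by 1.09 ± 0.20 against WT (adjusted p = 0.00283). It fell by 0.76 ± 0.20 in gtl1 (adjusted p = 0.0305), with an adjusted p of 0.0638 to 0.111 without any 1 gtl1 array or WT replicate 2 or 3, and of 0.0557 after quantile normalization. As for XTH19, GTL1ox was the only genotype in which XTH27 was above WT by the test.

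CSLC4, a synthase that makes the xyloglucan backbone, was far higher in both genotypes with the gtl1 mutation. It was at 8.15, 8.10 and 8.20 in gtl1 and 8.51, 8.65 and 8.10 in gtl1df1, against 4.81, 4.89 and 5.42 in df1 and 5.12, 5.37 and 6.36 in WT. Every array of gtl1 and gtl1df1 lay above every other array. CSLC4 was 3.38 ± 0.31 (SE) higher in gtl1df1 than in df1, both on high-BioB arrays (10.4-fold, adjusted p = 1.4e-05), and it differed by 0.27 between gtl1df1 and gtl1 (95% interval -0.40 to 0.94, adjusted p = 0.86). The added controls also differed between df1 and gtl1df1, and their part in the CSLC4 result was not tested. Against WT CSLC4 rose by 2.53 ± 0.31 in gtl1 (adjusted p = 0.000345, or 0.0806 with only the compared arrays fitted) and by 2.80 ± 0.31 in gtl1df1 (adjusted p = 6.3e-05). In GTL1ox and DF1ox CSLC4 differed from WT by -0.81 (adjusted p = 0.0801) and -1.04 (adjusted p = 0.0585).

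CSLC12, a relative of CSLC4, was at 9.21, 9.61 and 9.06 in GTL1ox and 10.27, 10.82 and 10.49 in WT. It fell in GTL1ox by 1.23 ± 0.18 (SE) against WT (2.35-fold, adjusted p = 0.000213) and was not called in any comparison without GTL1ox. The arrays of GTL1ox lay below those of every other genotype, as they did for XTH26. CSLC6 fell by 0.29 ± 0.09 in GTL1ox (adjusted p = 0.035) and was 0.48 ± 0.09 higher in gtl1df1 than in df1 (adjusted p = 0.0024), and the first of these was lost without any 1 GTL1ox array or WT replicate 2 or 3 (adjusted p = 0.0634 to 0.135) and with only the compared arrays fitted (adjusted p = 0.241). CSLC5 and CSLC8 stayed between 2.22 and 2.75. Thus 2 of the 5 pathway genes fell and 0 rose in GTL1ox against WT (beside 24.5% of all probe sets called, 9.65% lower). In DF1ox 0 were called (8.04%), 1 rose in gtl1 (11.8%, 5.24% higher), 0 were called in df1 (17.6%), and 2 rose in gtl1df1 (14.7%, 6.77% higher). With 5 genes, counts of 0 to 2 are too small to set apart from these shares. The 2 that rose in gtl1df1 were CSLC4 and CSLC6, of which CSLC6 had an adjusted p of 0.0375, lost with the replicate number as a block (0.054), with only the compared arrays fitted (0.299), and without any 1 gtl1df1 array or WT replicate 1 or 3 (0.0694 to 0.129).

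**Figure D3:**
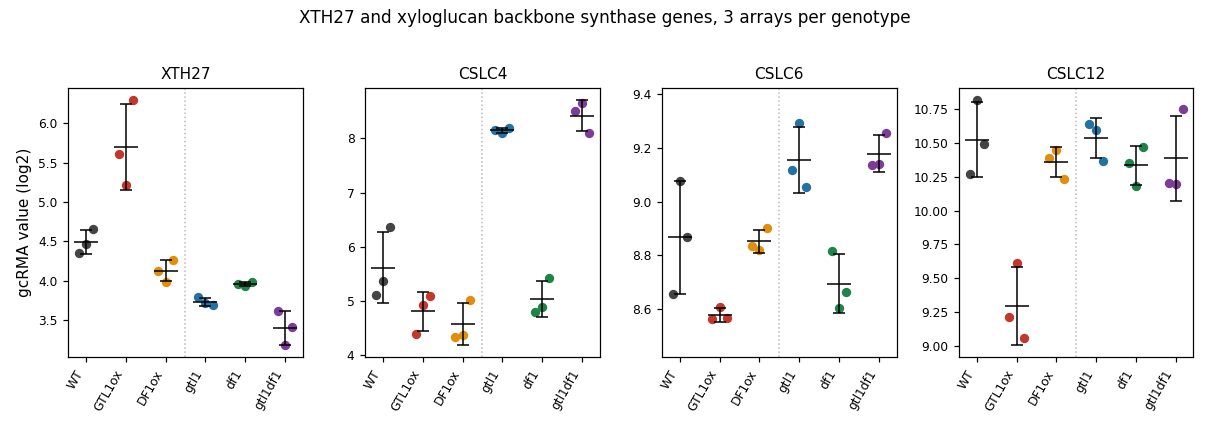
Level of XTH27 and of 3 CSLC genes (vertical axis, gcRMA value on the log2 scale, a separate scale for each gene) in 6 genotypes. Points are single arrays, lines are means with SD (n = 3), and the dotted line parts the low-BioB (left) from the high-BioB arrays. CSLC4 is at 8.10 to 8.65 in gtl1 and gtl1df1 and at no more than 6.36 elsewhere, and CSLC12 is lowest in GTL1ox at 9.06 to 9.61.

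The pattern of XTH26 was set beside that of 2791 single-gene probe sets whose genotype means spanned at least 1 log2 unit, as a description without a test. The 6 most like it over the 18 arrays were AT3G56500 (Pearson r = 0.95), AT2G34330 (0.94), AT5G36270 (0.94), AT3G54040 (0.94), the asparaginase gene ASPGB1 (0.93) and AT4G25410 (0.93). The arrays share genotypes and the division by BioB, so the points are not independent. All 6 had their lowest mean in GTL1ox, as XTH26 did, which largely restates how they were picked. AT2G34330 was at 4.87 there and 9.33 in WT, and AT4G25410 was at 2.77 there and 5.38 in WT. Among the XTH genes themselves, which were not picked for likeness, the correlations over the same arrays included 0.67 for XTH18 and XTH33, 0.60 for the neighbours XTH18 and XTH19, 0.47 for XTH26 and XTH33 and -0.44 for XTH26 and XTH19.

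**Figure D4:**
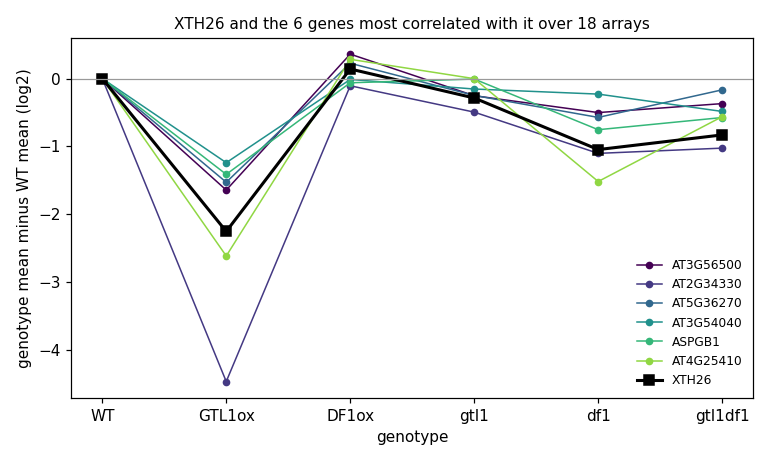
Genotype mean minus WT mean (vertical axis, log2) of XTH26 (black squares) and of the 6 genes most correlated with it over 18 arrays (coloured points) in 6 genotypes; lines join the values of 1 gene. All 7 genes are lowest in GTL1ox, where XTH26 is 2.25 below WT.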

How the data were processed

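The values deposited by the authors are on a log2 scale. According to the methods and the processing notes (GCRMA), the authors normalized the ATH1 arrays with gcRMA in R with affylmGUI. Scanner files were not analysed here, and the sources used here state no gcRMA settings. The values were used without a further logarithm or a filter on dim probe sets. All 18 columns were matched to samples by the labels, and after removal of 64 control probe sets 22746 remained. Platform annotation and the RefSeq gene table of TAIR10.1 gave 13513 probe sets 1 gene, 503 several and 8730 none.

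The limma package (3.58.1, under R 4.3.3) estimated genotype means from the 18 arrays together, and contrasts were tested with moderated statistics, two-sided. P-values were adjusted by Benjamini-Hochberg over the 22746 probe sets, and a probe set with an adjusted p under 0.05 was called. The comparisons were 10 pairs of genotypes and the interaction of gtl1 and df1. Alternatives were a fit of only the arrays compared, quantile normalization, leaving out the dimmer part of the probe sets (mean at or below the median), a mean-variance trend, a 2-fold minimum, the replicate number as a block, and leaving out each array. Precision is limited by the number of arrays, 3 per genotype. In the main fit the p-values rest on a spread per probe set pooled within genotypes over all 18 arrays. They therefore do not measure the spread of the compared genotypes alone. Same-number arrays of df1 and gtl1df1 deviated together from their means (correlations 0.101, 0.208 and 0.279), the only pair compared with every correlation over 0.1. Those of WT and GTL1ox were 0.0677, 0.0995 and 0.131. The labels do not say what the numbers mark.

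The fit was tested on simulated data with known changes. These were normal values with the same spread in every genotype and no lowest value, unlike the arrays here. The simulation therefore does not show how the fit does on these arrays. The genes named were all XTH members, with full values for those called in GTL1ox, DF1ox or gtl1df1 against WT, the 6 genes most correlated with XTH26, and up to 4 members per comparison of a list of the remaining XTH family and of the xyloglucan pathway. Names on the lists were matched through the reference table. Members and lists were chosen with earlier results of these data known. Python 3.11.15 with pandas 2.3.3 wrote the tables, and matplotlib 3.10.9 drew the plots.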

Additional observations from a re-analysis of the deposited data

Results flagged for a closer look

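The effect of losing DF1 on XTH18 differed between plants with and without the gtl1 mutation. XTH18 was at 8.83 ± 0.37 (SD, n = 3) in WT and 9.12 ± 0.06 in df1, and at 8.64 ± 0.23 in gtl1 and 7.96 ± 0.11 in gtl1df1. The difference between these effects, tested as the interaction in limma, was -0.97 ± 0.24 (SE, adjusted p = 0.0145, and 0.00104 to 0.0444 over the alternative fits). The 3 gtl1df1 arrays lay below all arrays of gtl1, and WT replicate 1, at 9.25, lay above the df1 arrays. WT was measured on low-BioB arrays and the mutants on high-BioB arrays, and this division and genotype cannot be told apart. No group held more than 3 arrays, so single arrays were not tested as outliers.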

How the results depend on the processing

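Of the 30 calls among the 9 XTH genes over 11 comparisons, 15 held in every alternative fit and 0 changed sign. With only the compared arrays fitted, 13 of the 30 were lost, and the count of genes called was 1 in each of GTL1ox, DF1ox, gtl1, df1 and gtl1df1 against WT and 0 in gtl1df1 against gtl1. The count stayed at 3 in GTL1ox against DF1ox. Such a fit has fewer arrays and takes the spread from the compared genotypes alone, and which of these ended the calls was not tested. With a 2-fold minimum the counts were 1 in GTL1ox and 1 in DF1ox against WT, 2 in gtl1df1 against WT, 0 in gtl1df1 against gtl1, 2 in DF1ox against gtl1df1 and 0 in the interaction. Quantile normalization left 1 in gtl1 against WT, XTH33, as XTH21 was lost (adjusted p = 0.0526), and so did the replicate number as a block (XTH21 at adjusted p = 0.0531); the cause was not tested. The block moved no other count of XTH genes by more than 1.5 times. With only probe sets of a mean above the median tested, which adjusts over fewer of them, 2 were called in gtl1df1 against df1 and 2 in the interaction.

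When each array was left out in turn, the counts ranged from 2 to 3 in GTL1ox, 1 to 3 in DF1ox, 1 to 3 in gtl1, 1 to 5 in df1 and 3 to 5 in gtl1df1 against WT, from 0 to 1 in gtl1df1 against gtl1 and from 1 to 2 in the interaction. Differences that changed sign were all small and uncalled. In DF1ox against WT, XTH19 ranged from -0.12 to 0.18 and XTH26 from -0.00915 to 0.31. XTH18 in gtl1 against WT ranged from -0.31 to 0.026, and the XTH19 interaction from -0.045 to 0.31. XTH21 ranged from -0.00292 to 0.40 in GTL1ox against DF1ox, from -0.059 to 0.34 in GTL1ox against gtl1df1, from -0.091 to 0.016 in DF1ox against gtl1df1 and from -0.070 to 0.037 in gtl1df1 against gtl1, where quantile normalization gave -0.017.

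The deviations of same-number arrays correlated above 0.1 in every number in 1 of 10 pairs of genotypes compared, df1 with gtl1df1. In 2 of 10, that pair and WT with GTL1ox, each array correlated best with its own number. XTH16, XTH20, XTH29 and XTH32 lie too near the lowest signal for a difference to be measured.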
